A study of Mus musculus with 10 samples.

Results

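The ribosome biogenesis and RNA polymerase I genes comprised 45 genes chosen by name: *Myc*, the RNA polymerase I machinery, and the nucleolar proteins that modify, cut and assemble ribosomal RNA (rRNA), without the ribosomal proteins themselves. All 45 were found among the 55487 genes of the deposited read count table, of which 29542 had at least 1 count, and all 45 were among the 13740 genes expressed above the filter (more than 1 CPM, that is, counts scaled by the library total, in at least 3 libraries). RNA polymerase I transcribes the long rRNA precursor in the nucleolus. Small nucleolar ribonucleoproteins (snoRNPs) then guide its chemical modification, the small subunit processome and the large subunit assembly factors cut and fold it around ribosomal proteins, and the finished subunits leave the nucleus. The transcription factor MYC is known as an activator of many of these genes, and macrophages raise ribosome production when they grow or divide. The rRNA itself was not analysed here.

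The study asked how cells that express arginase 1 differ from their neighbours in the inflamed spinal cord. All 10 libraries came from 5 male mice of the C57BL/6 background, 8 to 12 weeks old, of the genotype Arg1tm1Lky (reporter strain B6.129S4-Arg1tm1.1Lky/J in the study's methods), a reporter by which *Arg1* expression is read as yellow fluorescence (YFP), and all 5 animals had experimental autoimmune encephalomyelitis (EAE, an inflammatory model of multiple sclerosis raised by immunization with a myelin peptide and pertussis toxin) at peak disease. From the spinal cord of each mouse, 200000 YFP+ (ARG1+) and 100000 YFP- (ARG1-) viable Ly6G-CD3-CD45+CX3CR1+ cells were sorted for separate libraries, which gave 5 pairs of an ARG1+ and an ARG1- library. The animals are named m2, m6, m234, m235 and m236. This gate takes in macrophages of the central nervous system as well as monocyte-derived cells, and the number of sorted cells differed with the group, so that its part cannot be told apart from that of the cell state. No healthy or untreated animals were compared.

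Library totals were 28870482 to 33826355 counts in ARG1+ cells and 8396863 to 35455643 in ARG1- cells. The ARG1- library of m234 was the smallest, and no other had fewer than 28212174. The gene that defines the sort, *Arg1*, had 814 ± 174 CPM against 18.4 ± 4.96 CPM (n = 5 each, SD), a difference of 5.45 on the log2 scale (standard error 0.213, FDR 1.07e-07), without overlap of the groups. All 7 genes of sorted cell identity, *Ptprc* (CD45) and *Cx3cr1* among them, were above the filter. Of these, 1 was higher and 1 lower in ARG1+ cells, or 2 and 5 once the animal was added to the test as a block, and their summed level was 4040 to 4665 CPM in ARG1+ and 4269 to 5935 CPM in ARG1- libraries. Counts on the mitochondrial genome made up 0.702% to 0.889% of each library. Every fold change sets ARG1+ over ARG1- on the log2 scale throughout, and false discovery rates (FDR) come from edgeR's quasi-likelihood test over all 13740 genes.

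Among the 45 genes, 4 were lower in ARG1+ cells at an FDR below 0.05: *Myc*, *Nop58*, *Fbl* and *Gar1*. This was 8.89% of the members, where 6.15% of all genes tested were lower. No member was higher, against 6.82% of all genes. Without adjustment, 1 member was higher and 10 were lower at p below 0.05, where 15% of all genes were higher and as many lower. DESeq2 called 1 member higher (*Utp20*, where 9.29% of all genes were higher) and 6 lower (*Ddx21* and *Mrto4* in addition, where 9.52% of all genes were lower), and limma-trend called 0 higher and the same 4 lower. No member passed an absolute log2 fold change above 1 in addition to the FDR, a limit that 1.45% of all genes passed. Without the ARG1- library of m234, 7 members were lower, and without both libraries of m6, or both of m236, only *Myc* and *Nop58* were, which made 2. The shares of all genes called in these fits are not given here. The median log2 fold change was -0.08 over the 45 members and -0.07 without *Myc*, beside -0.002 over all genes, and single members ran from -0.86 to 0.31. In 33 members the value was below 0 and in 12 above 0. With library totals alone in place of the TMM scaling 38 members were below 0, and with upper-quartile factors 32 were. The median over all genes moved too, to -0.04 with library totals alone and to 0.008 with upper-quartile factors.

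The libraries came in pairs from the same animal. With the animal as a block, 13 members were lower (28.9%, where 18.3% of all genes were lower) and 2 were higher (4.44%, where 16.8% of all genes were higher). The 13 were *Myc*, *Nop58*, *Fbl* and *Gar1*, then *Ddx21*, *Wdr43*, *Mrto4*, *Nip7*, *Heatr1*, *Polr1c*, *Utp4*, *Gnl2* and *Ubtf*, and the 2 were *Utp20* and *Nop56*. Of the 45 members, 17 were lower in ARG1+ cells in each of the 5 animals (37.8%, where this held for 21.0% of all genes), and 4 were higher in each (8.89%, where this held for 20.0%), namely *Utp20*, *Nop56*, *Polr1b* and *Rrn3*. In 3 members, *Myc*, *Nop58* and *Fbl*, every ARG1+ library lay below every ARG1- library (6.67%, where 5.2% of all genes did so), and in 0 members did every ARG1+ library lie above (6.15% of all genes). Within single animals the median difference over the members ran from -0.10 in m2 (34 of 45 members lower) to -0.03 in m235 (24 of 45 lower). The summed level of the 44 members other than *Myc* was 2456 to 2574 CPM in ARG1+ and 2578 to 2704 CPM in ARG1- libraries. These ranges nearly met, at 2574 CPM in the ARG1+ library of m236 and 2578 CPM in the ARG1- library of m234, the smallest library. How often sums over other genes part in this way was not counted. In bulk samples, fewer cells of a type and less RNA per cell cannot be told apart.

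**Figure D1:**
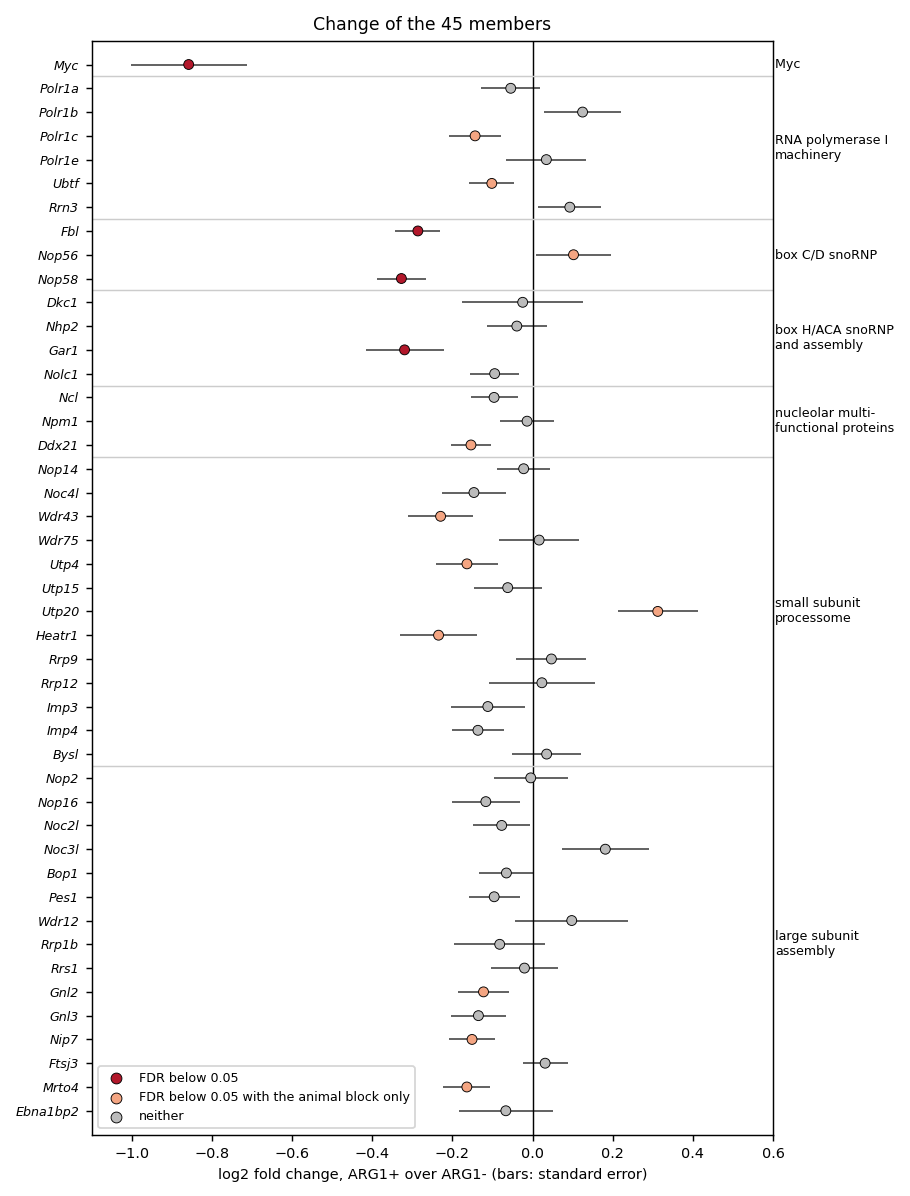
Log2 fold change of each of the 45 members, ARG1+ over ARG1-, with its standard error as a bar, grouped by role. Red points passed an FDR of 0.05, orange points only with the animal as a block, and grey points neither. *Myc* at -0.86 stands far to the left of the other members, which lie between -0.33 and 0.31.

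**Figure D2:**
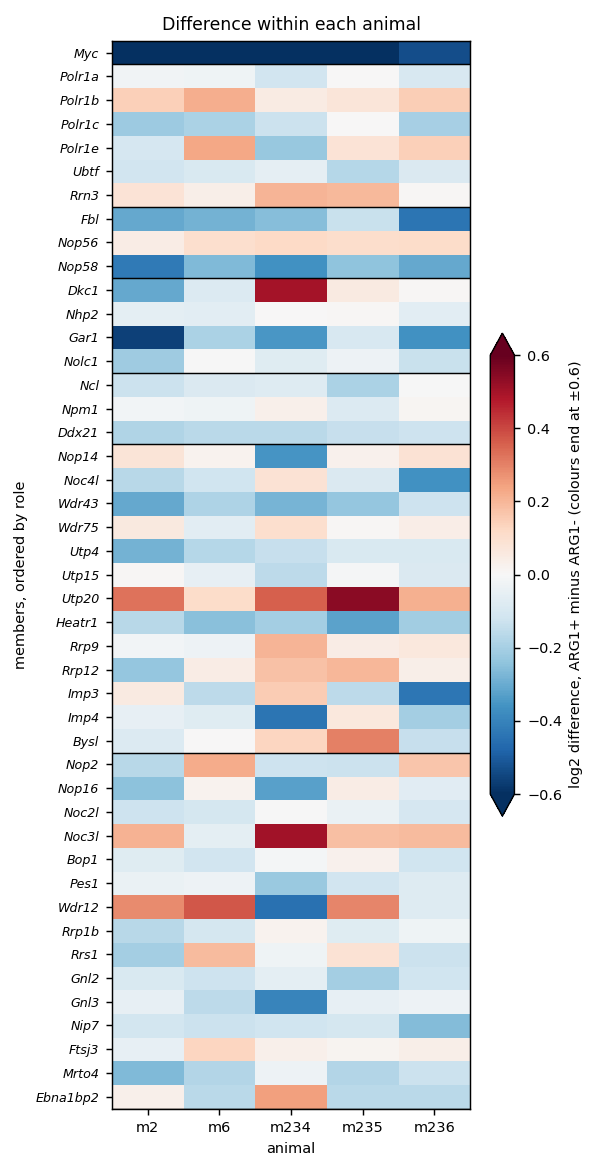
Difference in log2(CPM + 0.5) between the ARG1+ and ARG1- library of each animal (columns) for each member (rows, with lines between the roles). Blue is lower and red higher in ARG1+ cells, with colours that end at 0.6 on either side. The rows of *Myc*, *Nop58*, *Fbl* and *Ddx21* are blue in all 5 animals and that of *Utp20* is red in all 5, while *Dkc1*, *Noc3l* and *Wdr12* take their deepest colours in m234.

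*Myc* encodes a basic helix-loop-helix transcription factor that pairs with MAX and binds the E-box letters CACGTG. On GRCm38 it occupies bases 61985391 to 61990374 of chromosome 15, forward strand. In the ARG1+ libraries of m2, m6, m234, m235 and m236 it had 19.8, 20.3, 19.0, 15.5 and 26.3 CPM, and in the ARG1- libraries of the same animals 41.5, 34.9, 42.0, 26.9 and 38.2 CPM. The highest ARG1+ value, that of m236, was still below the lowest ARG1- value, that of m235. The means were 20.2 ± 3.89 and 36.7 ± 6.17 CPM (n = 5 each, SD), which differ by -0.86 (standard error 0.145, FDR 0.00336). The mean level fell by 44.8% (2-sided exact permutation test without pairing, p = 0.00794, the smallest that 5 libraries against 5 allow). With any library or animal left out its FDR was 0.00148 to 0.0299. None of the 50-base stretches of its exons occurred in another gene.

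Of 12 genes of the MYC and MAX network listed beside it, 10 were above the filter, with a median of -0.16. Of these, 0 were higher and 3 lower in ARG1+ cells (30%, where 6.15% of all genes were lower). At unadjusted p below 0.05, 1 was higher and 5 lower, where 15% of all genes were higher and as many lower. DESeq2 called 1 higher and 4 lower, where 9.29% and 9.52% of all genes were. With the block 1 was higher (10%, where 16.8% of all genes were) and 6 lower (60%, where 18.3% were). *Mycl*, a close relative of *Myc*, had 0.60 ± 0.262 and 1.75 ± 0.278 CPM (n = 5 each, SD, ARG1+ first), a change of -1.50 (FDR 0.00482). *Mxd1*, whose protein competes with MYC for MAX and represses, was at 140.3 ± 22.2 and 236.1 ± 35.8 CPM (n = 5 each, SD), a change of -0.75 (FDR 0.00287). Both lay lower in all 5 animals without overlap of the groups. The third was *Mlxip*, a partner of MLX, at -0.17 (FDR 0.0477). *Mycn* and *Mxd3* did not pass the filter.

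**Figure D3:**
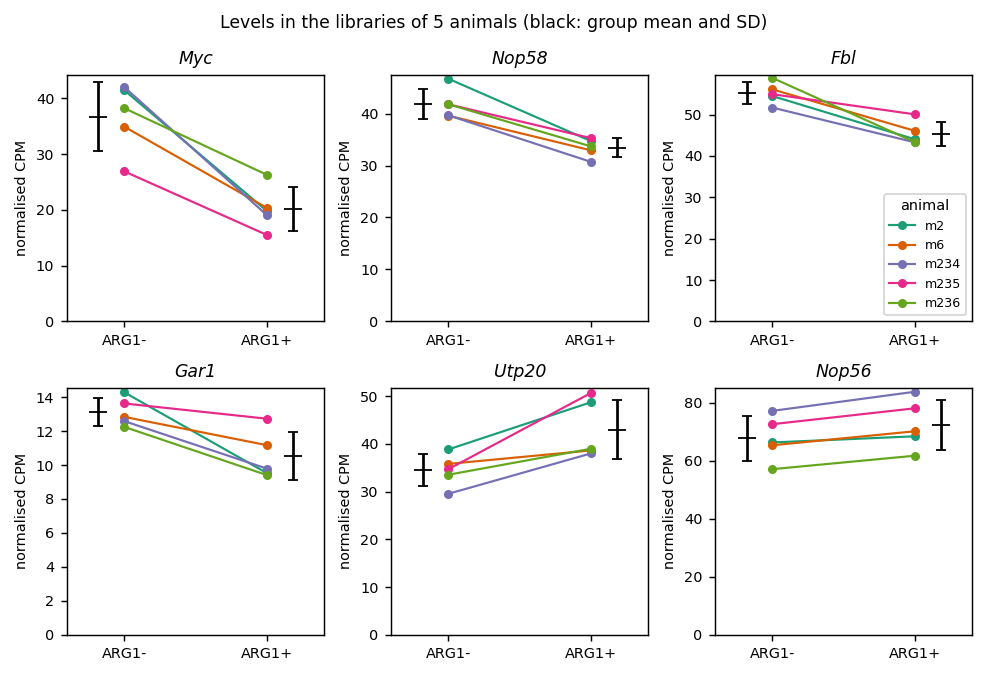
Normalised CPM (axes from 0) of the 4 members called lower and the 2 called higher with the animal as a block. Each line joins the ARG1- and ARG1+ library of 1 animal, and the black bars give the mean and SD of the 5 libraries. *Myc*, *Nop58* and *Fbl* fall in every animal with no overlap of the groups, *Gar1* falls in every animal with overlap, and *Utp20* and *Nop56* rise in every animal with overlap.

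The stretches before the start of these genes are shown for the called members that have an entry in the RefSeq promoter table (GRCm38.p6), *Nop58* and *Gar1*, and for *Nop2* and *Rrn3*, which hold an E-box there. They are chr1:59684756-59684970 (*Nop58*, forward strand), chr3:129831397-129831646 (*Gar1*, reverse), chr6:125131633-125131882 (*Nop2*, forward) and chr16:13780449-13780698 (*Rrn3*, forward), written from 5′ to 3′ on the strand of the gene. Capitals mark the E-box CACGTG and the letters CCGGAA, which also count as TTCCGG from the other strand and may overlap it.
Nop58: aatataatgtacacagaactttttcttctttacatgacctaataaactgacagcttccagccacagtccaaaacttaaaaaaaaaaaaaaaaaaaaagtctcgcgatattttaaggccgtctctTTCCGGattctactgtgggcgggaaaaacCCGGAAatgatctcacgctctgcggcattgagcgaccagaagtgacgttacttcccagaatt
Gar1: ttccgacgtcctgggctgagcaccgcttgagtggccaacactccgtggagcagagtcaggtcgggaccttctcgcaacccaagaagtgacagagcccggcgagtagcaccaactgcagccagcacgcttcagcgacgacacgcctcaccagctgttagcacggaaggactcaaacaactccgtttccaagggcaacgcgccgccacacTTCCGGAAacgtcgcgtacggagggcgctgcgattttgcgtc
Nop2: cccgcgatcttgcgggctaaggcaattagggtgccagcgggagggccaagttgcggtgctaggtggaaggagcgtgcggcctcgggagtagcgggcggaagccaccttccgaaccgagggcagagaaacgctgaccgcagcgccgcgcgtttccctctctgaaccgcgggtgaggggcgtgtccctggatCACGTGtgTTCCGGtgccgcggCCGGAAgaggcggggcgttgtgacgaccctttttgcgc
Rrn3: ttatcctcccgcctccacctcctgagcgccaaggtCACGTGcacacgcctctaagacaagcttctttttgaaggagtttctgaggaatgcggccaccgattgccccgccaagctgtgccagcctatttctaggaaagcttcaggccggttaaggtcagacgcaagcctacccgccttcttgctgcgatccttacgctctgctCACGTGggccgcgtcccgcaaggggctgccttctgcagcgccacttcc

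Of the 45 members, 38 had such an entry, a window of 250 bases before to 50 after the RefSeq start. *Myc*, *Fbl*, *Npm1*, *Rrp12*, *Gnl2*, *Rrs1* and *Bop1* were not among them. CACGTG, which reads the same on both strands, occurred in 7 of the 38 windows (18.4%), where 8.09% of the windows of 27025 genes held it. In *Imp4*, *Nop2* and *Rrn3* it lay before the start, with 2 copies in *Rrn3*, at -215 and -48 from it, and 1 in *Nop2*, at -60. In *Pes1*, *Utp20*, *Utp4* and *Wdr43* it lay within 50 bases after the start. CACGCG, searched on both strands with CGCGTG, occurred in 12 windows (31.6%, where 10.5% of all genes had it). CCGGAA, chosen after these sequences were read and searched on both strands, occurred in 18 windows (47.4%, where 16.7% of all genes had it). The members' windows held a median of 22 CG dinucleotides, where all genes held 7. Among the 10038 genes with at least 15 CG dinucleotides the same letters were found in 12.03%, 24.4% and 31.1%. A match describes the letters and is no evidence of binding.

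In the RNA polymerase I machinery, none of 6 genes passed the FDR without the block, with 1 lower at unadjusted p below 0.05 and 0 called by DESeq2, and the median was -0.01. *Polr1c*, a subunit that RNA polymerase III shares, was the most abundant per length, at 16.5 (ARG1+) and 18.2 (ARG1-) CPM per kb of exon. It had 34.7, 35.5, 41.7, 38.9 and 36.8 CPM in the ARG1+ libraries of m2, m6, m234, m235 and m236, and 40.4, 40.6, 45.7, 38.9 and 42.3 CPM in the ARG1- libraries. It was lower in 4 animals and level in m235, and the groups overlapped (-0.14, FDR 0.162, and 0.0281 with the block). *Ubtf*, which encodes the upstream binding factor that holds the rRNA genes open, was lower in all 5 animals by a small amount, at 95.8 ± 6.59 and 103 ± 4.04 CPM (n = 5 each, SD; -0.10, FDR 0.245, and 0.0335 with the block). *Rrn3*, the factor that recruits the polymerase to the rRNA promoter, was at 34.0 ± 2.09 and 31.7 ± 3.48 CPM (n = 5 each, SD), and higher in each animal (0.09, FDR 0.457, and 0.130 with the block). The largest catalytic subunit *Polr1a* was at -0.05, the second largest, *Polr1b*, at 0.12, and *Polr1e* at 0.03, with FDR of 0.412 to 0.851.

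The 3 proteins of the box C/D snoRNPs, which place methyl groups on rRNA, were 2 lower genes and 1 that was not. *Nop58*, a core scaffold protein (chromosome 1, bases 59684971 to 59719044, forward strand), had 34.7, 32.9, 30.7, 35.3 and 33.7 CPM in the ARG1+ libraries and 46.7, 39.6, 39.7, 41.8 and 41.8 CPM in the ARG1- libraries, with the animals in the order above. Every ARG1+ value lay below every ARG1- value. The means were 33.4 ± 1.79 and 41.9 ± 2.89 CPM (n = 5 each, SD), a change of -0.33 (standard error 0.0616, FDR 0.00606), so that it fell by 20.3%. *Fbl* encodes fibrillarin, the methyltransferase of the particle (chromosome 7, bases 28169710 to 28179269, forward strand). It had 44.0, 46.0, 43.2, 50.03 and 43.3 CPM in ARG1+ and 54.5, 56.1, 51.7, 54.9 and 58.8 CPM in ARG1- libraries, again without overlap. Its means were 45.3 ± 2.87 and 55.2 ± 2.60 CPM (n = 5 each, SD), a change of -0.29 (standard error 0.0564, FDR 0.00758). *Nop58* stayed below an FDR of 0.05 in all 15 fits that left out a library or an animal, and *Fbl* in 13 of 15, the exceptions being those without m6 or without m236 (highest FDR 0.0513).

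*Nop56*, the partner of NOP58 in the same particle, lay on the other side. It had 68.5, 70.2, 83.8, 78.1 and 61.8 CPM in ARG1+ and 66.3, 65.3, 77.2, 72.6 and 57.1 CPM in ARG1- libraries. The difference between animals exceeded that between the groups, which overlapped, but in each animal the ARG1+ library was the higher (0.10, FDR 0.501, and 0.0458 with the block). It was also the most abundant of the 3 per length, at 17.7 and 16.5 CPM per kb of exon. Of the 50-base stretches of its exons, 18.6% occurred in another gene as well, as did 19.7% of those of *Fbl* (with *Tulp4* and *Gm5812*) and 1.67% of those of *Nop58*, and 8.0% of the exon bases of *Nop56* lie within small genes of its own strand, where the source of a read is uncertain.

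Of the 4 members of the box H/ACA snoRNPs and their assembly, which turn uridines of rRNA into pseudouridine, 1 was lower. *Gar1*, a core protein (chromosome 3, bases 129824912 to 129831396, reverse strand), had 9.52, 11.2, 9.79, 12.7 and 9.41 CPM in ARG1+ and 14.3, 12.8, 12.6, 13.6 and 12.2 CPM in ARG1- libraries. It was lower in each animal, although the ARG1+ library of m235 lay within the range of the ARG1- libraries. The change of -0.32 (standard error 0.0972) had an FDR of 0.04997 and of 0.0132 with the block (exact permutation test without pairing, p = 0.0238). It stayed below 0.05 in only 2 of 15 fits that left out a library or an animal, and reached 0.220 without m2. *Nhp2*, another core protein and the most abundant per length of the 4 (31.9 and 32.7 CPM per kb of exon), had 36.8, 37.2, 32.8, 41.2 and 34.9 CPM in ARG1+ and 38.3, 38.9, 32.7, 40.9 and 36.4 CPM in ARG1- libraries. Its groups overlapped almost fully (-0.04, FDR 0.763). The pseudouridine synthase *Dkc1* was at -0.02 (FDR 0.935), with single animals from -0.31 to 0.50, and the snoRNP chaperone *Nolc1* at -0.09 (FDR 0.323), lower in all 5 animals.

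The 3 nucleolar proteins with several tasks held the highest CPM of the members, a scale that grows with the length of a gene. Per length, *Noc2l* stood above *Ncl* and *Ddx21*. *Npm1* (nucleophosmin) led all 45 genes per length, at 101 and 102 CPM per kb of exon. It had 265, 256, 301, 244 and 283 CPM in ARG1+ and 268, 260, 294, 259 and 281 CPM in ARG1- libraries, and the animals differed more than the groups did (-0.01, FDR 0.916). Of its 50-base stretches, 24.3% occurred in other genes as well, *Gm9118* and *Gm14681* among them. *Ncl* (nucleolin) was at 478 ± 30.9 and 512 ± 19.7 CPM (n = 5 each, SD), lower in each animal, by the least in m236 (-0.10, FDR 0.295, and 0.0696 with the block). *Ddx21*, an RNA helicase that works on rRNA transcription and processing, was at 153 to 171 CPM in ARG1+ and 170 to 187 CPM in ARG1- libraries, lower in all 5 animals. Only the m236 ARG1+ and the m234 ARG1- library overlapped. Its change was -0.15 (standard error 0.0492, FDR 0.0600, and 0.00447 with the block).

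**Figure D4:**
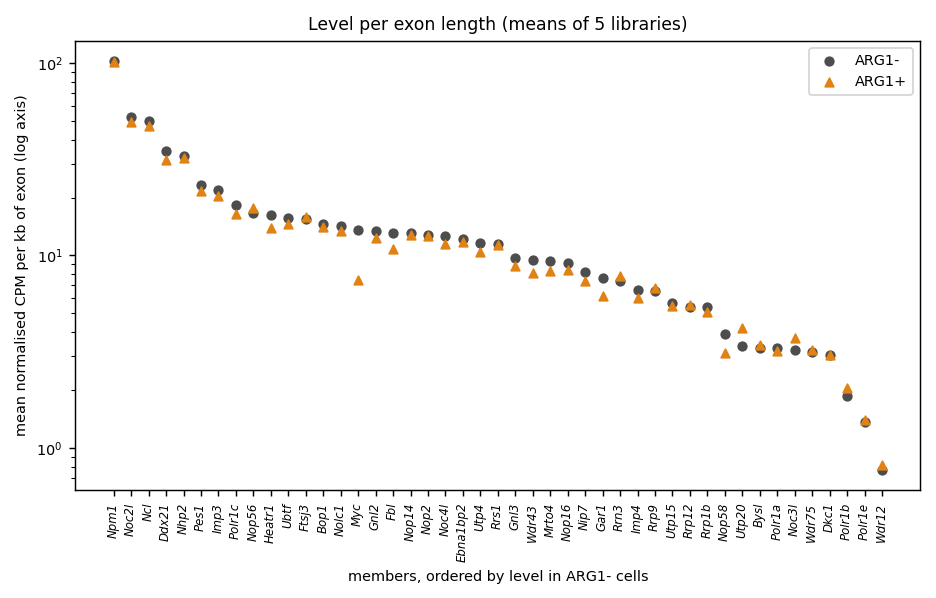
Mean normalised CPM per kb of exon (log axis) of the 45 members in ARG1- (circles) and ARG1+ (triangles) cells, each the mean of 5 libraries, ordered by the level in ARG1- cells. The levels ran from 102 for *Npm1* to 0.771 for *Wdr12* in ARG1- cells, and the widest gap between the symbols is that of *Myc*, at 7.43 and 13.5.

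In the small subunit processome, the particle that folds and cuts the small subunit part of the precursor, 0 of 13 genes passed the FDR (1 higher and 2 lower at unadjusted p below 0.05, 1 higher by DESeq2), and the median was -0.06. With the block 1 was higher (7.69%, where 16.8% of all genes were) and 3 were lower (23.1%, where 18.3% of all genes were). *Utp20*, a large repeat protein (chromosome 10, bases 88746607 to 88826804, reverse strand), was higher in each animal. It had 48.8, 38.6, 38.0, 50.7 and 39.0 CPM in ARG1+ and 38.8, 35.8, 29.5, 34.7 and 33.5 CPM in ARG1- libraries, and the ARG1+ libraries of m6 and m234 lay below the ARG1- library of m2. The change was 0.31 (standard error 0.0994, FDR 0.0591, and 0.00335 with the block). *Heatr1*, *Wdr43*, *Utp4*, *Utp15* and *Wdr75* encode parts of the subcomplex that binds the precursor first, and 3 of these were lower with the block. *Heatr1* was at 109 ± 12.8 and 128 ± 14.9 CPM (n = 5 each, SD; -0.23, FDR 0.125, and 8.01e-04 with the block), *Wdr43* at -0.23 (FDR 0.0818, and 0.00262 with the block) and *Utp4* at -0.16 (FDR 0.174, and 0.0198 with the block). *Utp15* was at -0.06 and *Wdr75* at 0.02, with FDR of 0.666 and 0.936.

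The most abundant processome gene per length was *Imp3*, which binds the U3 RNA of the particle, at 20.3 and 21.9 CPM per kb of exon. It had 18.4, 19.6, 21.8, 17.2 and 16.5 CPM in ARG1+ and 17.7, 21.98, 19.5, 19.2 and 22.5 CPM in ARG1- libraries, and was higher in m2 and m234 and lower in the other animals (-0.11, FDR 0.451). Its partner *Imp4* was at -0.14 (FDR 0.185) and the U3-specific protein *Rrp9* at 0.05 (FDR 0.759). *Nop14* was at -0.02 (FDR 0.852) and *Noc4l*, which binds it, at -0.15 (FDR 0.234). *Rrp12* and *Bysl*, which act late on the small subunit, were at 0.02 and 0.04, with FDR of 0.930 and 0.821.

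In the large subunit group, 0 of 15 genes passed the FDR (0 higher and 2 lower at unadjusted p below 0.05, 1 lower by DESeq2), the median was -0.08, and 3 were lower with the block. These 3 were 20% of the group, where 18.3% of all genes were lower with the block. *Mrto4*, which holds the place of a ribosomal stalk protein, was at 21.8 ± 0.919 and 24.3 ± 1.29 CPM (n = 5 each, SD), lower in all 5 animals (-0.16, FDR 0.0838, 0.0305 with the block and 0.0425 by DESeq2). The others were *Nip7*, at -0.15 (FDR 0.106, and 0.0374 with the block), and the GTPase *Gnl2*, at -0.12 (FDR 0.219, and 0.0311 with the block). The most abundant per length was *Noc2l*, at 49.5 and 52.1 CPM per kb of exon. It had 131, 143, 131, 157 and 147 CPM in ARG1+ and 143, 154, 132, 161 and 158 CPM in ARG1- libraries, a little lower in each animal (-0.08, FDR 0.497). Of its exon bases, 20.9% are overlapped by *Samd11* on the opposite strand, and the use of strand in the counting is not stated in the methods or labels.

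*Pes1*, *Bop1* and *Wdr12* encode a trimer that processes the large subunit rRNA. *Pes1* was at -0.10, *Bop1* at -0.07 and *Wdr12* at 0.10, with FDR of 0.335 to 0.686, and *Wdr12* had the lowest level per length of all members, at 0.818 and 0.771 CPM per kb of exon. Of the other assembly factors, the NOC protein *Noc3l* was at 0.18 (FDR 0.288), the GTPase *Gnl3* (nucleostemin) at -0.14 (FDR 0.210), *Nop16* at -0.12 (FDR 0.388), *Rrp1b* at -0.08 (FDR 0.668) and *Ebna1bp2* at -0.07 (FDR 0.746). *Rrs1*, which helps to seat the small rRNA of the large subunit, was at -0.02, the rRNA methyltransferase *Nop2* at -0.005 and the methyltransferase *Ftsj3* at 0.03, with FDR of 0.748 to 0.982. Of the 50-base stretches of *Pes1* 23.3%, and of those of *Mrto4* 12.3%, occurred in other genes, pseudogenes among them.

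A wider set of 115 biogenesis factors that are not members was listed by role, of which 114 were above the filter and *Exosc6* had 0 counts in every library. Of these, 0 were higher and 6 lower in ARG1+ cells at an FDR below 0.05 (1 higher and 11 lower at unadjusted p below 0.05, 0 higher and 8 lower by DESeq2), and 2 were higher and 15 lower with the block. The lower genes were 5.26% of the set, where 6.15% of all genes tested were lower. With the block they were 13.2%, where 18.3% of all genes were lower. The higher genes with the block were 1.75%, where 16.8% of all genes were higher. The median of the set was -0.02. The clearest was *Utp3*, a processome protein, at 42.6 ± 2.70 and 56.6 ± 4.21 CPM (n = 5 each, SD), lower in all 5 animals without overlap of the groups (-0.40, FDR 0.00238). *Ngdn* of the processome (-0.19, FDR 0.0283) and *Sdad1* (-0.22, FDR 0.00905), *Pak1ip1* (-0.22, FDR 0.0377), *Gtpbp4* (-0.23, FDR 0.0457) and *Ddx54* (-0.17, FDR 0.0440) of large subunit assembly were also lower. With no filter on low counts 1 was lower. With a library or animal left out 1 to 3 were lower, apart from 5 without the ARG1+ library of m235 or the ARG1- library of m234 and 4 without both libraries of m234 or both of m235. By role, 2 of 37 other processome factors and 4 of 42 other large subunit factors were lower. None of 10 other RNA polymerase I factors (*Taf1a* at -0.35, FDR 0.0652, and *Znrd1* at -0.10, FDR 0.374), 12 other snoRNP factors (*Ruvbl2* at -0.14, FDR 0.178, and *Pih1d1* at 0.13, FDR 0.230) or 13 tested RNA exosome subunits (*Exosc3* at -0.20, FDR 0.134, and *Exosc8* at -0.13, FDR 0.227) passed it, with 0 called by DESeq2 in each and 1, 0 and 1 lower at unadjusted p below 0.05.

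Related machinery that is not in the lists above was read beside the members. RNA polymerase III and its factors make the small rRNA and transfer RNA, and the median of their 20 genes was -0.001. At unadjusted p below 0.05, 4 were higher and 2 lower, and DESeq2 called 2 higher and 0 lower. By edgeR without the block, 1 was higher (where 6.82% of all genes were) and 0 were lower. This was *Gtf3c3*, at 10.9 ± 0.727 and 7.84 ± 0.582 CPM (n = 5 each, SD; 0.47, FDR 0.00464), and the next was *Polr3k* at 0.28 (FDR 0.0790). With the block 4 were higher (20%, where 16.8% of all genes were) and 2 lower (10%, where 18.3% were). Of 13 subunits of RNA polymerase II none passed without or with the block (0 by DESeq2, 1 lower at unadjusted p below 0.05), with a median of -0.02, and the smallest FDR were those of *Polr2d* (-0.18, FDR 0.162) and *Polr2b* (0.12, FDR 0.218). The 20 genes of nucleotide synthesis had a median of 0.08. With the block 8 were higher (40%, where 16.8% of all genes were) and 1 lower (5%, where 18.3% were). At unadjusted p below 0.05, 7 were higher and 1 lower, and DESeq2 called 4 higher and 0 lower. By edgeR without the block, 4 were higher (where 6.82% of all genes were) and 0 lower. They were *Impdh1*, which commits purines to guanine nucleotides (35.4 ± 5.15 and 23.6 ± 5.37 CPM, n = 5 each, SD, 0.57, FDR 0.0291), *Ctps2*, which makes CTP (0.22, FDR 0.0245), *Paics* (0.18, FDR 0.0477) and *Adss* (0.23, FDR 0.0485), each higher in all 5 animals. With a library or animal left out, 0 to 2 of this list were higher, apart from 3 without the ARG1+ library of m235 and 4 without the ARG1- library of m236. With no filter on low counts 1 was higher, and with library totals alone 2 were.

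The 79 genes of cytosolic ribosomal proteins, the partners of rRNA in the particle, all had a value below 0, with a median of -0.18. Of these, 9 were lower at an FDR below 0.05 (11.4%, where 6.15% of all genes were lower). With the block 65 were lower (82.3%, where 18.3% of all genes were). The smallest FDR without the block were those of *Rpl18* (-0.29, FDR 0.0203) and *Rps6* (-0.30, FDR 0.0254). The count without the block was 16 by DESeq2 (where 9.52% of all genes were lower), 15 with library totals alone and 5 with no filter on low counts. With a library or animal left out it was 0 to 5, apart from 21 without the ARG1+ library of m234, 19 without both libraries of m234 and 8 without the ARG1- library of m235. They made up 1.75% to 2.29% of the counts in ARG1+ and 2.17% to 2.62% in ARG1- libraries. The difference between their median and that of the 45 members was not tested.

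**Figure D5:**
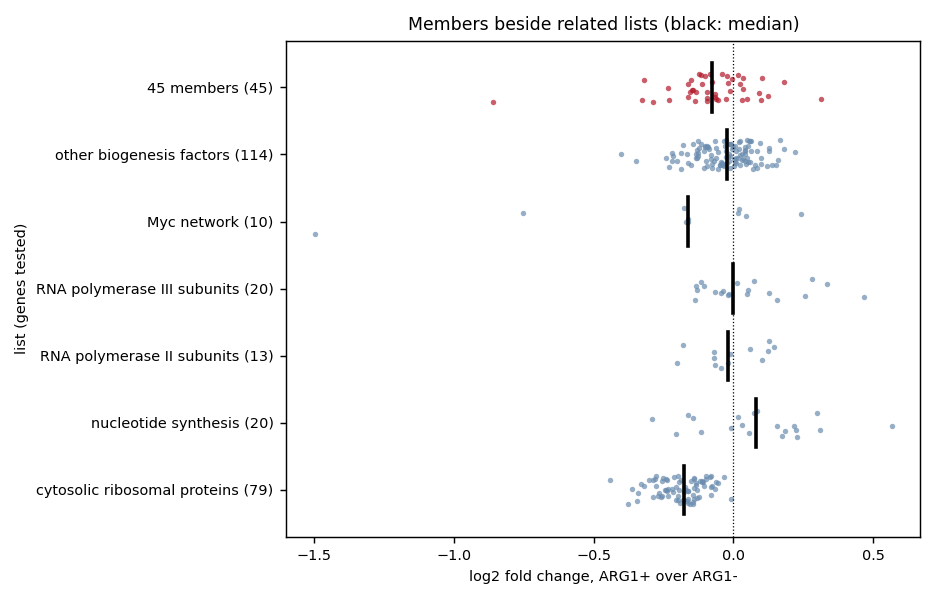
Log2 fold change, ARG1+ over ARG1-, of each tested gene (points, spread vertically at random) in the 45 members, 5 lists of other biogenesis factors taken as 1, and 5 lists of related genes, with the median as a black bar. The medians are -0.08 for the members, -0.02 for the other factors, -0.18 for ribosomal proteins and 0.08 for nucleotide synthesis. The point at -1.50 in the MYC network is *Mycl*, which passed the filter only through its ARG1- libraries.

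Some markers of division and of other cells differed between the groups too, and their part in the values above was not tested. Over all genes, 6.82% were higher and 6.15% lower, or 16.8% and 18.3% with the block. Of 24 proliferation genes tested, 0 were higher and 3 lower (8 lower at unadjusted p below 0.05, 4 by DESeq2), with summed levels of 411 to 445 CPM in ARG1+ and 435 to 548 CPM in ARG1- libraries. They were *Cdt1*, which licenses replication origins (-0.55, FDR 0.00945), *Cdc20* (-0.87, FDR 0.0458) and *Ccnb2* (-0.79, FDR 0.0461). With a library or animal left out, *Cdt1* stayed below 0.05 in all 15 fits, but *Cdc20* and *Ccnb2* each in only 3, with an FDR of up to 0.201 and 0.181, and *Cdc20* was the higher in the ARG1+ library of m236. With the block 1 of the list was higher and 9 were lower. The sums that follow are over each whole marker list, in ARG1+ libraries and then in ARG1- libraries. Of 8 dendritic cell markers tested 5 were lower, or 7 with the block (19.7 to 37.2 and 37.3 to 132 CPM), of 7 inflammatory monocyte markers 4 were lower, or 2 higher and 5 lower with the block (1 higher and 4 lower by DESeq2, 2599 to 9102 and 2658 to 7865 CPM), and of 10 microglia markers 1 was lower, or 8 with the block (1327 to 1955 and 1529 to 4659 CPM). All 3 border-associated macrophage markers tested were higher (139.6 to 235.2 and 79.0 to 131 CPM). Of 4 B and plasma cell markers tested 1 was higher and 2 were lower (209 to 252 and 157 to 182 CPM), and of 3 neutrophil markers tested 1 was lower, or 2 higher and 1 lower with the block (133 to 322 and 67.1 to 186 CPM). Neither the 1 T cell marker tested (1.67 to 3.82 and 1.15 to 4.26 CPM), nor any of 5 oligodendrocyte (147 to 180 and 138 to 197 CPM) or 2 neuron and astrocyte markers (9.93 to 22.5 and 14.2 to 27.8 CPM) passed the FDR, and DESeq2 and unadjusted p below 0.05 gave 1 higher and 1 lower oligodendrocyte marker and none of the others. No marker was at 0 in all libraries.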

How the data were processed

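RNA from sorted cells was read as 50-base single ends from strand-specific libraries. Alignment by the authors was to GRCm38 with STAR (2.7.10b in the submitters' processing notes), with counting on basic Ensembl transcripts with summarizeOverlaps in Union mode, which drops a read that meets more than 1 feature, summed to genes. The deposited values are whole-number read counts per gene without normalization. The use of strand in counting is not stated in the paper or labels, nor is the handling of reads shared by transcripts of 1 gene, on which levels per length of genes with several transcripts, and their order, depend.

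A minimum of CPM above 1 in 3 or more libraries was set, and the genes that passed (13740 genes, 99.8% of counts) were tested with edgeR 4.0.16 (quasi-likelihood test, TMM library sizes, no block, Benjamini-Hochberg FDR below 0.05) in R 4.3.3, where the study's methods name limma-trend with the same filter. CPM are TMM-normalised. Levels per length use exons of GENCODE annotation of GRCm38. Differences within an animal and the 2-sided exact permutation tests (252 splits) use log2(CPM + 0.5). The permutation tests split the libraries without regard to the pairs. Alternatives were the animal as a replicate block, RLE, upper-quartile or no factors, other filters, DESeq2 1.42.0, limma-trend (limma 3.58.1, prior count 2), and each library or animal left out. The fits were tested on simulated counts. Unchanged genes called there numbered 5 with edgeR, 5 with the block, 4 with limma-trend and 27 with DESeq2. The simulated counts held no animal effect and no change smaller than 0.5 on the log2 scale. The gain from pairing and changes of the size seen in members other than *Myc* were therefore not tested. The smallest library had 8396863 counts, and the replicates of a group were no copies of each other (chi-square over degrees of freedom 15.6 to 62.9). Numbers in the labels name the animal, so that the libraries are pairs by animal. Residuals from the group means correlated at 0.361 to 0.664 across genes for libraries of the same animal. Those of different animals correlated at most at 0.0675, a limit that the subtraction of group means itself lowers when values within animals are positive.

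The members and lists were chosen with earlier results of these data known. Every member is named. Values in every library are given for *Myc*, the members past the FDR and the most abundant member per length of each role, and from each other pathway list the 2 genes with the smallest FDR are named with a fold change or group means. *Utp20* and further genes past the FDR in the lists were added after their values were seen. The marker lists cover sorted identity, proliferation, dendritic cells, microglia, border-associated macrophages, inflammatory monocytes, neutrophils, B and plasma cells, T cells, oligodendrocytes, and neurons and astrocytes.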

Additional observations from a re-analysis of the deposited data

Results flagged for a closer look

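In 9 of 136 groups of 5 libraries checked over 68 genes, 1 library stood apart from the other 4 (gap over range above 0.71), where chance gives about 1 in 20. Of these, 5 were members and all 5 rested on m234. In its ARG1+ library *Polr1a* was at 32.0 CPM, where the others had 38.8 to 40.3, and *Rrn3* was at 30.3 CPM, where the others had 34.6 to 35.5. In its ARG1- library, the one with the fewest counts, *Ncl* was at 547 CPM (others 502 to 503), *Nop14* at 39.1 CPM (others 34.2 to 35.3) and *Noc3l* at 9.30 CPM (others 13.4 to 14.3). Outside the members, *Pih1d1* at 20.0 CPM (others 24.3 to 25.6) and *Mycl* at 2.24 CPM (others 1.56 to 1.70) stood apart in the same ARG1- library, *Ctps2* at 60.1 CPM (others 66.3 to 68.3) in the ARG1+ library of m2, and *Arg1* at 27.0 CPM (others 14.3 to 17.9) in the ARG1- library of m2. None of these 5 members passed the FDR.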

How the results depend on the processing

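Of 1080 member values under alternatives, 974 kept their direction and their side of the FDR threshold, 17 lost the call, 39 gained one and 50 reversed, the last in 13 members. *Myc* and *Nop58* kept their calls under every alternative run except the added limit on fold change. With the animal as a replicate block, which is the paired analysis, 2 members were higher and 13 lower, and 2 other biogenesis factors were higher and 15 lower, and over all genes 2307 were higher and 2519 lower, where the fit without it gave 937 and 845. With the block and without m234, a setting chosen after seeing the data, 1 member was higher and 15 lower, and 3 of the other factors were higher and 18 lower. For this setting, and for the other scalings, filters on low counts and omissions, the share of all genes called is not given here. The counts of members in these settings can therefore not be set against it. Upper-quartile factors, the stricter filter (CPM above 5 in at least 5 libraries) and DESeq2 each gave 1 higher member. Library totals alone gave 7 lower members and a median of -0.12, where the median over all genes moved as well, from -0.002 to -0.04. No filter on low counts gave 1 lower gene among the other factors. With an absolute log2 fold change above 1, 0 members were lower.

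With a library or animal left out, 0 to 1 members were higher, 2 to 7 were lower, 1 to 5 of the other factors were lower, and the members' median ran from -0.10 to -0.049, the last without the ARG1+ library of m234. The reversed values were all of members without a call. With library totals alone *Polr1e* was at -0.00685, *Wdr75* at -0.024, *Rrp12* at -0.018, *Bysl* at -0.00700 and *Ftsj3* at -0.00930. *Dkc1* was at 0.036 with limma-trend. *Npm1* was at 0.000564 and *Nop2* at 0.00915 with no filter, and *Nop2* was at 0.00639 with upper-quartile factors. With the block and without m234, *Nop14* was at 0.054 and *Nop2* at 0.023. With a library or animal left out, *Polr1a* ran from -0.090 to 0.0034, *Polr1e* from -0.024 to 0.096, *Dkc1* from -0.12 to 0.12, *Npm1* from -0.054 to 0.020, *Nop14* from -0.053 to 0.055, *Wdr75* from -0.038 to 0.071, *Rrp9* from -0.00083 to 0.10, *Rrp12* from -0.063 to 0.10, *Bysl* from -0.032 to 0.093, *Nop2* from -0.068 to 0.055, *Rrs1* from -0.079 to 0.033 and *Ebna1bp2* from -0.15 to 0.024. The cause of these changes was not tested.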
